A study of Mus musculus with 24 samples.

Results

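The knockdown of Prmt1 was examined in embryoid bodies treated for 12 h with all-trans retinoic acid (ATRA) or with its vehicle DMSO. Arrays were chosen by their labels: 6 arrays of the siPRMT1 line (3 with ATRA and 3 with DMSO) were set against 6 arrays of the siSCR line (3 with ATRA and 3 with DMSO), with treatment as a factor. These are 12 of the 24 arrays of the series. Both lines come from the mouse embryonic stem cell line D3. The siPRMT1 cells carry the knockdown and the siSCR cells a scrambled sequence. The labels do not state whether the knockdown is stable or whether a line is 1 clone. All cells had been passaged on gelatin to remove feeder cells and were then aggregated without the cytokine LIF. The bodies were treated at day 4, and ATRA was used at 5 micromol final concentration. Untreated day 4 bodies, with 3 siPRMT1 and 3 siSCR arrays, share no array with the treated ones, and they were used to sort the effects. The last 6 arrays are of undifferentiated cells. The labels call the arrays biological replicates without naming separate cultures, so p-values measure only the spread between these arrays.

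PRMT1 is an arginine methyltransferase that leaves the asymmetric dimethyl mark on histones and on many RNA-binding proteins, and it works with nuclear receptors as a coregulator. ATRA is the ligand of the retinoic acid receptors, which pair with retinoid X receptors on response elements near their target genes. In embryoid bodies the outer cells turn into visceral endoderm, which secretes apolipoproteins and lays down a basement membrane, while the inner cells leave the naive state of pluripotency for that of the primed epiblast.

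Prmt1 itself was lower in the treated siPRMT1 bodies. Its log2 expression value was lowest at 10.03, had a median of 10.28 and was highest at 10.45 in the 6 siPRMT1 arrays, against 11.50, 11.55 and 11.59 in the 6 siSCR arrays. At day 4 it was 10.35, 10.29 and 10.26 in siPRMT1, against 11.02, 10.85 and 10.92 in siSCR. The lines did not overlap in either state, and the 6 treated siSCR arrays lay above all other 18 arrays. From here on, a difference is siPRMT1 minus siSCR on the log2 scale with its standard error, from 1 limma fit of 8 group means to all arrays. A gene is called when its Benjamini-Hochberg adjusted p over all 19938 genes is under 0.05. For Prmt1 the 12 h difference, the mean of ATRA and DMSO, was -1.28 ± 0.043 (n = 6 arrays per line), which left 41.1% of the siSCR level (limma adjusted p = 3.8e-16). The two-sided exact permutation p of 6 against 6 arrays was 0.00216, the smallest that the 924 splits allow. With ATRA the difference was -1.45 ± 0.061 and with DMSO -1.11 ± 0.061 (n = 3 each). It was deeper with ATRA by -0.33 ± 0.087 (limma adjusted p = 0.040). At day 4 it was -0.63 ± 0.061. Set against the siSCR arrays of day 4, another time and treatment, Prmt1 in treated siPRMT1 bodies was at -0.66.

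The 6 treated siSCR arrays stood apart from the rest of the series. The first principal component held 52.2% of the variance. Values spread over genes with an SD of 2.16 to 2.27 on the 6 treated siPRMT1 arrays and of 1.98 to 2.08 on the 6 treated siSCR arrays, and of 2.15 to 2.27 on all arrays but these siSCR arrays. A treated siSCR array correlated with the other 18 at 0.951 to 0.973 over genes, while the lowest correlation between replicates of a group was 0.99 to 0.998. Between treated and day 4 bodies, 1281 genes were called in siPRMT1 (6.42% of those tested), and 14370 in siSCR (72.1%). The labels give no batch, so a technical cause of this border cannot be told apart from the group. The spread was unequal too: the median SD within a group was 0.0847 for siPRMT1 with ATRA and 0.0626 with DMSO, against 0.137 for siSCR with ATRA and 0.118 with DMSO. The fit takes 1 spread for all groups.

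**Figure D1:**
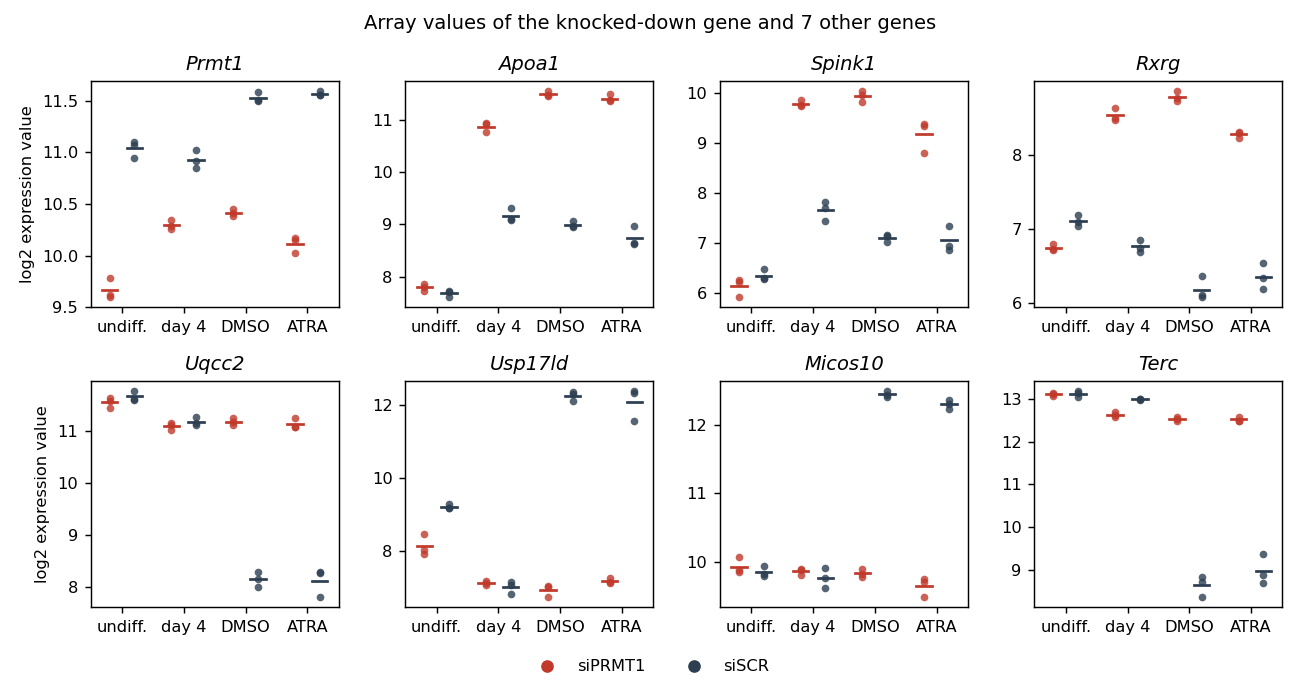
Log2 expression value (y axis, its range differs between panels) of 8 genes on each array, by state (x axis: undifferentiated, day 4, DMSO 12 h, ATRA 12 h). Each point is 1 of the 3 arrays of a group and the bar is their mean. Apoa1, Spink1 and Rxrg were higher in siPRMT1 at day 4 and after treatment, whereas for Uqcc2, Usp17ld, Micos10 and Terc the treated siSCR arrays lie far from every other array.

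Over all genes, 15812 were called at 12 h, or 79.3% of those tested, of which 6889 were higher (34.6% of those tested) and 8923 lower (44.8%) in siPRMT1. The day 4 arrays gave 3669 calls (18.4%), 2272 higher (11.4%) and 1397 lower (7.01%). The split of directions rested on the scaling of the arrays. The share called higher at 12 h was 43.6% as deposited, 50.6% after quantile normalization, 55.9% when each array was centred on its median and 54.3% when each was scaled to one SD. Centring moved the median difference of all genes by 0.12 and scaling by 0.115, so gene lists are given below beside the median of all genes. For day 4 the share called higher was 61.9% as deposited, 82.9% with centring and 77.8% with scaling to one SD. The genes called at 12 h were therefore sorted by the day 4 arrays. Of them 2304, or 11.6% of all genes tested, were called at day 4 with the same sign, 1664 higher and 640 lower. With the opposite sign at day 4 there were 825 (4.14%), 468 higher and 357 lower. Another 7809 (39.2%) were not called at day 4 and had a called difference between the 12 h and day 4 effects (called in 52.2% of all genes), and these are named 12 h only genes below. The remaining 4874 (24.4%) could not be placed. The share higher among the genes with the same sign was 72.2% as deposited and 90.3% with centring, and among those with opposite signs 56.7% and 38.1%. Of the day 4 calls 62.8% were called the same way at 12 h, and of the 12 h calls 14.6% were called the same way at day 4.

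**Figure D2:**
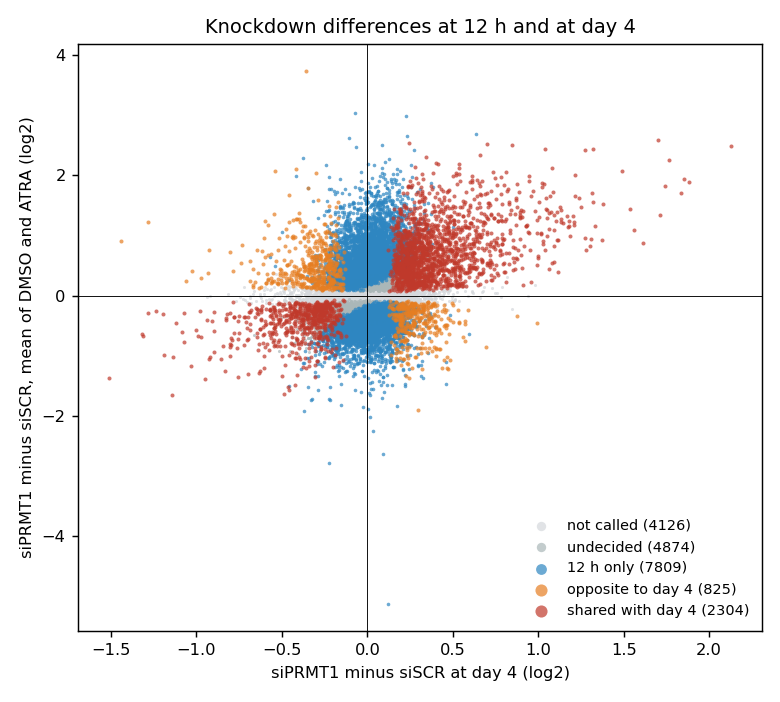
Difference siPRMT1 minus siSCR (log2) of each of 19938 genes, after 12 h of treatment (y axis, mean of ATRA and DMSO) against day 4 (x axis), coloured by class with the number of genes in brackets. The genes with the same sign in both (2304) run along a diagonal, and the 12 h only genes (7809) form a tall column near 0 on the day 4 axis. Across genes, which are not independent replicates, the correlation was 0.374 (Pearson) and 0.338 (Spearman).

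Where the siSCR arrays lay differed between these classes. In 57.2% of the 12 h only genes, and 55.2% of those opposite to day 4, all 6 treated siSCR arrays lay above or below the other 18 arrays. The share was 29.4% in the genes shared with day 4, 3.12% in those that could not be placed and 28.9% over all genes tested. The 12 h only and opposite classes were sorted by how the 12 h and day 4 effects differ. A move of treated arrays from day 4 is thus built into them, though not which line moved. The other 18 include undifferentiated arrays, so siSCR arrays inside their range can still have moved from day 4. For the 6 siPRMT1 arrays the shares were 0.999% of the 12 h only genes, 3.95% of the genes shared with day 4 and 0.903% of all genes. In the median 12 h only gene the treated arrays differed from day 4 by 0.072 in siPRMT1 and by 0.54 in siSCR, both as absolute log2 differences. Over all genes these medians were 0.085 and 0.34.

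The effects shared with day 4 included genes of the visceral endoderm. Of 24 measured genes for carriers and uptake proteins of this layer 17 were called higher and 2 lower at 12 h, with a median of 0.62, against -0.10 over all genes. At day 4 the count was 17 higher and 0 lower with a median of 0.59, and 16 genes were called with the same sign in both. The median stayed between 0.549 and 0.742 under the scalings tried. None of the 24 had its treated siSCR arrays outside the other 18, while 4 had their treated siPRMT1 arrays outside. The undifferentiated arrays widen that range. For Ttr the siSCR mean was 6.76 there, 9.95 at day 4, 10.67 with DMSO and 10.28 with ATRA. The count for siSCR thus cannot show that its arrays had not moved. Over the list, the median change from day 4 was 0.13 in siSCR and 0.14 in siPRMT1. RNA of bulk cultures cannot tell a larger number of cells of a type from more RNA per cell.

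Apoa1, the main apolipoprotein of high-density lipoprotein, was lowest at 11.35, had a median of 11.47 and was highest at 11.54 in treated siPRMT1 bodies, against 8.62, 8.96 and 9.06 in treated siSCR bodies. At day 4 it was 10.91, 10.93 and 10.76 in siPRMT1, against 9.10, 9.31 and 9.08 in siSCR. The treated siPRMT1 arrays were the highest of the series, and the lines did not overlap in either state. The 12 h difference was 2.58 ± 0.058 (limma adjusted p = 2.79e-18) and the day 4 difference 1.70 ± 0.082. Spink1, a trypsin inhibitor, was at 8.80, 9.61 and 10.04 in treated siPRMT1 bodies, against 6.87, 7.09 and 7.35 in treated siSCR bodies (lowest, median and highest). Day 4 gave 9.86, 9.75 and 9.76 in siPRMT1, against 7.45, 7.70 and 7.83 in siSCR. The lines were again separate in both states, with differences of 2.48 ± 0.10 at 12 h and 2.13 ± 0.14 at day 4. For Spink1 the 2 differences were not told apart (limma adjusted p = 0.099), while that of Apoa1 was larger at 12 h by 0.88 ± 0.10.

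Other secreted or uptake proteins went the same way. The retinol carrier Rbp4 was higher by 1.87 ± 0.088 at 12 h and by 0.65 ± 0.12 at day 4. Apob, the structural protein of large lipoproteins, was higher by 1.47 ± 0.081 and 1.13 ± 0.11, and the thyroxine carrier Ttr by 1.15 ± 0.081 and 1.33 ± 0.11. The endocytic receptor Cubn was higher by 1.10 at 12 h and 0.55 at day 4. Not all members moved: Alb, which encodes albumin, was at -0.11 (adjusted p = 0.16), and Afp, alpha-fetoprotein, at 0.21 (adjusted p = 0.067), and neither was called. The fibrinogen genes Fga and Fgg were called lower at 12 h, at -0.35 and -0.27, and were not called at day 4; with quantile normalization no member was called lower.

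Endoderm transcription factors followed, with 12 higher and 1 lower of 15 measured at 12 h (median 0.76) and 9 higher and 0 lower at day 4 (median 0.51). The GATA factor Gata6, which specifies primitive endoderm, was at 11.91, 12.15 and 12.39 in treated siPRMT1 bodies, against 10.22, 10.59 and 10.82 in treated siSCR bodies. Day 4 gave 11.90, 11.88 and 11.85 in siPRMT1, against 11.03, 11.17 and 11.19 in siSCR. The treated siSCR arrays were the lowest of the series and the treated siPRMT1 arrays the highest. The siPRMT1 mean was 11.88 at day 4, 11.93 with DMSO and 12.38 with ATRA, so it rose mainly with ATRA. In siSCR the mean was 11.13 at day 4, 10.30 with DMSO and 10.80 with ATRA. The 12 h difference of 1.61 ± 0.039 was accordingly larger than the day 4 difference of 0.75 ± 0.055. Sox7, Hnf4a and Foxa2, which act in extraembryonic endoderm, were higher by 1.39, 1.20 and 1.17 at 12 h, and by 0.51, 0.69 and 0.94 at day 4. Eomes, a T-box factor of early endoderm and mesoderm, was higher at 12 h (1.31 ± 0.082) and was not called at day 4 (0.23 ± 0.12, adjusted p = 0.18). Hnf4g was the 1 member called lower at 12 h, at -0.45, and it was not called at day 4 (0.12).

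Genes of the basement membrane were 12 higher and 0 lower of 13 measured at 12 h (median 0.74), and 9 higher and 0 lower at day 4 (median 0.57). They fell into separate patterns. Plat, the tissue plasminogen activator gene, was higher by 1.70 ± 0.055 and 1.32 ± 0.078 at 12 h and day 4, the laminin chain Lama1 by 0.96 ± 0.042 and 0.79 ± 0.060, and Lamb1 by 0.76 ± 0.043 and 0.88 ± 0.061. By contrast, the laminin receptor Dag1 was at 1.11 ± 0.036 at 12 h and -0.02 ± 0.051 at day 4, and Nid1, a linker between laminin and collagen, at 0.98 ± 0.042 and -0.17 ± 0.060. The heparan sulfate proteoglycan Hspg2 was at 0.86 ± 0.048 and 0.11 ± 0.068. For Dag1, Nid1 and Hspg2 the treated siSCR arrays lay below all other 18 arrays and the day 4 difference was not called.

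The primed epiblast list had 15 genes higher and 1 lower of 17 measured at 12 h (median 0.92), and 12 higher and 0 lower at day 4 (median 0.66). It depended on the treatment, with a median of 0.32 with ATRA and 1.42 with DMSO, and 9 members had a difference that was called smaller with ATRA. The zinc finger factor Zic2 was at 10.39, 10.62 and 10.90 in treated siPRMT1 bodies, against 8.25, 8.44 and 8.65 in treated siSCR bodies. Its day 4 values were 10.72, 10.72 and 10.53 in siPRMT1, against 10.01, 10.05 and 10.30 in siSCR. The siPRMT1 level was alike at both times and the siSCR level was lower after treatment, so the 12 h difference of 2.20 ± 0.068 exceeded that of day 4, 0.53 ± 0.096. Fst, which encodes the activin antagonist follistatin, was higher by 1.61 ± 0.046 at 12 h and 1.05 ± 0.065 at day 4. The de novo DNA methyltransferases Dnmt3a and Dnmt3b were higher by 0.40 and 0.67 at 12 h, and by 1.11 and 0.90 at day 4.

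Of 59 genes that changed at least 2-fold the same way at 12 h and at day 4, 55 were higher and 4 lower. For 27 of them the 12 h and day 4 differences were called unequal, and in 4 the treated siSCR arrays lay outside the other 18. Genes not among these 4 could also have moved in siSCR. Its change after day 4 was -1.52 for Dgkk and -1.35 for Map7d3, against 0.09 for Ugt2b34. Rxrg, a retinoid X receptor, was at 8.23, 8.52 and 8.85 in treated siPRMT1 bodies, against 6.08, 6.26 and 6.54 in treated siSCR bodies. Its day 4 values were 8.49, 8.63 and 8.47 in siPRMT1, against 6.86, 6.75 and 6.69 in siSCR. The lines were apart in both states, by 2.26 ± 0.058 after treatment and by 1.76 ± 0.082 at day 4, and the treated siSCR arrays were the lowest of the series. Others were Greb1l (2.43 and 1.27 at 12 h and day 4), the semaphorin Sema6a (2.06 and 1.49), the chromatin remodeller Smarca2 (1.86 and 1.03), the growth factor Fgf10 (1.81 and 1.02), the transcriptional regulators Cited1 (1.66 and 1.22) and Bcl11a (1.55 and 1.32), and Wt1 (1.27 and 1.14). Tgm2, the tissue transglutaminase, was the largest fall of a protein-coding gene among the 4 lower ones. It was at 8.58, 8.86 and 9.18 in treated siPRMT1 bodies, against 10.07, 10.23 and 10.44 in treated siSCR bodies. The differences were -1.37 ± 0.054 at 12 h and -1.51 ± 0.076 at day 4, and the siSCR arrays did not stand outside the other 18. The germ cell factor Sohlh2 (-1.18 and -1.03), Got1l1 (-1.02 and -1.14) and the small Cajal body RNA Scarna17 (-1.65 and -1.14) were the others.

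Some genes called the same way in both states differed widely in size between them. Reep6, an endoplasmic reticulum shaping protein, was at 12.30, 12.37 and 12.39 in treated siPRMT1 bodies, against 9.66, 9.80 and 10.07 in treated siSCR bodies. Its day 4 values were 12.29, 12.24 and 12.22 in siPRMT1, against 11.93, 11.98 and 12.11 in siSCR. Here siPRMT1 was alike at both times (0.11 higher after treatment) and siSCR was 2.19 lower, so that the difference was 2.54 ± 0.052 at 12 h and 0.24 ± 0.074 at day 4. Among the 10 rises named by rule, Selenop, Meioc and Abitram also had their treated siSCR arrays below the other 18, while Apoa1, Spink1, Map7d3, Greb1l, Gkn2 and Glipr1 did not. Gkn2 and Glipr1 were nevertheless higher by 0.70 ± 0.13 and 0.66 ± 0.10 at day 4, against 2.52 ± 0.092 and 2.34 ± 0.071 at 12 h. Set against the siSCR arrays of day 4, another time and treatment, 4960 genes were called in treated siPRMT1 bodies (24.9%), 13.5% higher and 11.3% lower. The treated siPRMT1 arrays were higher by 2.28 for Apoa1, 1.90 for Spink1, 2.05 for Greb1l, 1.76 for Rxrg, 0.35 for Reep6, while Abitram was at 0.18 and was not called.

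The rule for naming genes, which passes over small nucleolar and Cajal body RNAs such as Scarna17, gave 10 falls. In 8 of these, all but Tgm2 and Gdpd3, the treated siSCR arrays lay above all others. In Scarna17 (-1.65 at 12 h) they did not. The transferrin receptor Tfrc was at 11.64, 11.79 and 11.91 in treated siPRMT1 bodies, against 13.06, 13.11 and 13.28 in treated siSCR bodies. It was lower by -1.35 ± 0.038 at 12 h and -0.30 ± 0.054 at day 4. The same held for the mevalonate pathway kinase Pmvk (-1.64 and -0.49), the long noncoding RNA Malat1 (-1.57 and -0.46), the apoptosis gene Pmaip1 (-1.49 and -0.42) and the keratin Krt19 (-1.26 and -0.63). Fmr1nb, Antkmt and Ankrd37 were lower by 1.52, 1.34 and 1.31 at 12 h, and by 0.46, 0.50 and 0.70 at day 4. Gdpd3, whose siSCR arrays lay inside the range of the others, was lower in both states (-1.39 ± 0.070 and -0.95 ± 0.099), and more so at 12 h by -0.44 ± 0.12 (limma adjusted p = 0.00476).

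Hypoxia and glycolysis genes were mostly lower, 3 higher and 14 lower of 23 measured at 12 h (median -0.20) and 0 higher and 15 lower at day 4 (median -0.24). Over all genes 34.6% were higher and 44.8% lower at 12 h, and 11.4% and 7.01% at day 4. At 12 h the list median stayed below 0 under the scalings tried, at -0.0778 with centring and -0.438 with scaling to one SD. Aldoc, the brain form of aldolase, was lower by -1.02 ± 0.041 and -0.92 ± 0.058 at 12 h and day 4. The platelet phosphofructokinase Pfkp was lower by -0.82 and -0.43, and Vegfa, the vascular growth factor, by -0.34 and -0.75. The hexokinase Hk2 belonged to the 12 h only genes. Its values were 10.82, 10.93 and 10.97 in treated siPRMT1 bodies, against 12.02, 12.14 and 12.32 in treated siSCR bodies, a difference of -1.25 ± 0.040, and the day 4 difference was 0.06 ± 0.057. Egln3, an oxygen-sensing prolyl hydroxylase, went opposite ways, at 0.54 ± 0.041 after treatment and -0.74 ± 0.059 at day 4.

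Naive pluripotency genes were called in both directions at 12 h. Of 19 measured, 8 were higher and 10 lower, while 34.6% of all genes were higher and 44.8% lower. The list median was -0.10, as over all genes, and turned to 0.02 with centring. At day 4, 0 were higher and 10 lower, while 11.4% of all genes were higher and 7.01% lower. The day 4 median was -0.24, against -0.02 over all genes. Prdm14, a repressor that guards naive pluripotency, was lower by -0.86 ± 0.049 at 12 h and -0.60 ± 0.069 at day 4, and Tcl1 by -0.74 ± 0.057 and -0.79 ± 0.081. In Prdm14 the treated siPRMT1 arrays lay below all other 18. Nanog was lower by -0.14 ± 0.036 and -0.25 ± 0.051. The 12 h rises of this list were not seen at day 4: the growth factor Fgf4 was at 1.32 ± 0.055 and -0.11 ± 0.077, and the homeobox gene Gbx2 at 1.16 ± 0.045 and 0.12 ± 0.064. In both of these the treated siSCR arrays lay below the other 18. Pou5f1, which encodes OCT4, was at 13.08 to 13.20 in treated siPRMT1 bodies and 13.06 to 13.16 in treated siSCR bodies, and it was not called (0.02 ± 0.029).

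**Figure D3:**
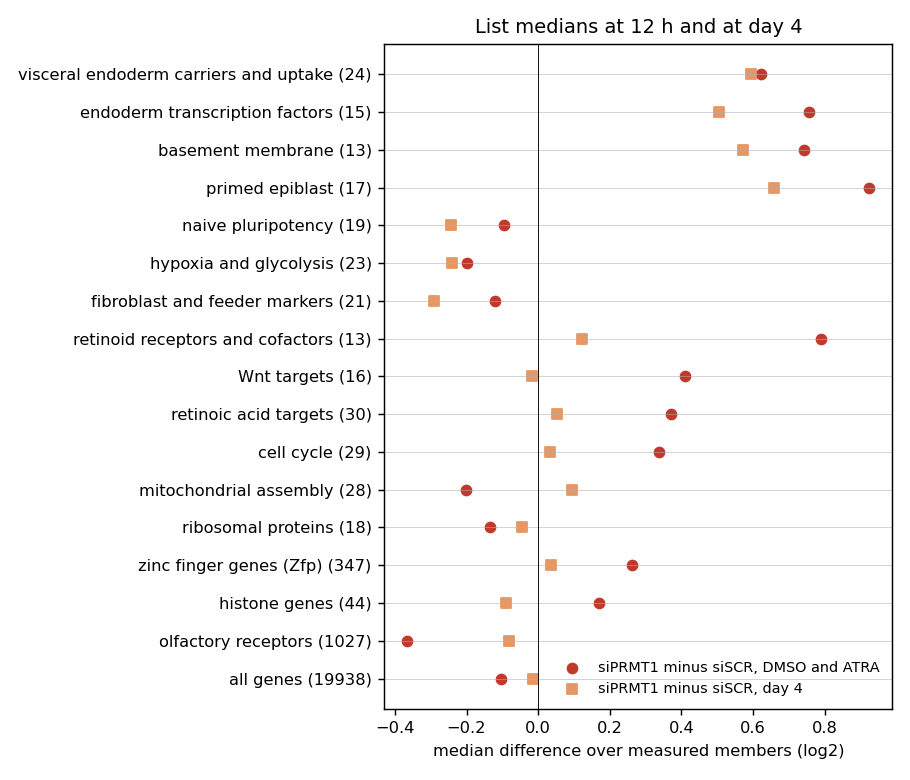
Median difference siPRMT1 minus siSCR (log2, x axis) over the measured members of each gene list (number in brackets), after 12 h of treatment (circles) and at day 4 (squares). The visceral endoderm, endoderm factor, basement membrane and primed epiblast lists lie right of 0 in both, while retinoid receptors and cofactors (0.79 and 0.12) and olfactory receptors (-0.37 and -0.08) lie away from 0 mainly after treatment. All genes lie at -0.10 and -0.02.

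The knockdown effect was mostly in the same direction with ATRA and with DMSO. With ATRA 13984 genes were called (70.1% of those tested, 32.2% higher and 38% lower), and with DMSO 13135 (65.9%, 31.3% higher and 34.6% lower). The share of calls that were higher was 45.9% with ATRA and 47.5% with DMSO as deposited, and 59.8% and 59.7% with centring. Of the 19938 genes tested, 11193 were called in the same direction with both and 58 in opposite directions. The contrast of the 2 effects, ATRA minus DMSO, called 646 genes (3.24%), 382 with a more positive effect with ATRA (1.92%) and 264 with a more negative one (1.32%). This count was 135 when only the groups compared were fitted, 405 with centring, and 304 to 897 when 1 array was left out, the lowest without siPRMT1 ATRA replicate 2. This contrast is also the ATRA response of siPRMT1 minus that of siSCR, each within the treated arrays of its own line. The siSCR arrays were not alike in spread: their SD over genes was 1.981 to 1.99 with ATRA and 2.039 to 2.075 with DMSO. In siPRMT1 it was 2.162 to 2.25 and 2.224 to 2.274. The contrast called 477 genes with arrays scaled to one SD and 715 with quantile normalization. What this unequal spread did to the contrast of single genes was not tested.

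Genes of the epiblast and of signals in it were among those with a larger effect with DMSO. Cer1, which encodes the secreted Nodal inhibitor Cerberus, was at 7.39, 7.41 and 7.36 with ATRA and 9.99, 9.97 and 10.12 with DMSO in siPRMT1, against 7.03, 6.33 and 7.09 with ATRA and 7.04, 6.50 and 6.91 with DMSO in siSCR. It was thus high only in the siPRMT1 arrays with DMSO among the treated groups. The difference was 0.57 ± 0.18 with ATRA and 3.21 ± 0.18 with DMSO (limma adjusted p of the contrast 4.64e-06), and 1.88 ± 0.18 at day 4. Lef1, a transcription factor of Wnt signalling, was at 7.68, 7.69 and 7.77 with ATRA and 10.27, 10.29 and 10.40 with DMSO in siPRMT1, against 7.31, 7.52 and 7.43 with ATRA and 7.98, 7.83 and 7.99 with DMSO in siSCR. The lines stayed separate with both treatments, by 0.29 ± 0.059 with ATRA and 2.39 ± 0.059 with DMSO, and by 1.71 at day 4. The paired immunoglobulin-like receptor Pilra (0.90 with ATRA, 2.51 with DMSO), the kinase Pim2 (0.26 and 1.81) and the cadherin Cdh9 (1.24 and 2.62) had the same pattern, with day 4 differences of 1.84, 1.02 and 1.85. Among primed epiblast members it was shared by Fgf5 (0.26 ± 0.11 with ATRA and 1.59 ± 0.11 with DMSO), Foxd3 (0.43 and 1.75) and Grhl2 (0.19, not called, and 1.32).

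The opposite pattern was led by a milk protein and by Hox genes. Csn3, which encodes kappa-casein, was at 9.06, 9.07 and 9.04 with ATRA and 5.95, 5.73 and 5.66 with DMSO in siPRMT1, against 6.64, 6.48 and 6.06 with ATRA and 5.63, 5.56 and 5.68 with DMSO in siSCR. With ATRA the lines were 2.66 ± 0.13 apart, and with DMSO the difference was not called (0.16 ± 0.13, adjusted p = 0.30). Hoxb2, an early hindbrain Hox gene, was at 10.41, 10.32 and 10.33 with ATRA and 7.49, 7.28 and 7.42 with DMSO in siPRMT1, against 7.75, 8.15 and 8.10 with ATRA and 7.47, 7.35 and 7.50 with DMSO in siSCR. With ATRA the lines differed by 2.35 ± 0.12, and with DMSO their arrays overlapped (-0.05 ± 0.12). Hoxb1 was higher by 1.53 ± 0.078 with ATRA and lower by -0.41 ± 0.078 with DMSO, Hoxb5 stood at 1.60 ± 0.11 and -0.32 ± 0.11, and the muscle phosphoglycerate mutase Pgam2 at 1.59 ± 0.095 and -0.10 ± 0.095. None of the 5 was called higher at day 4, and Hoxb5 was called lower there (-0.33).

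**Figure D4:**
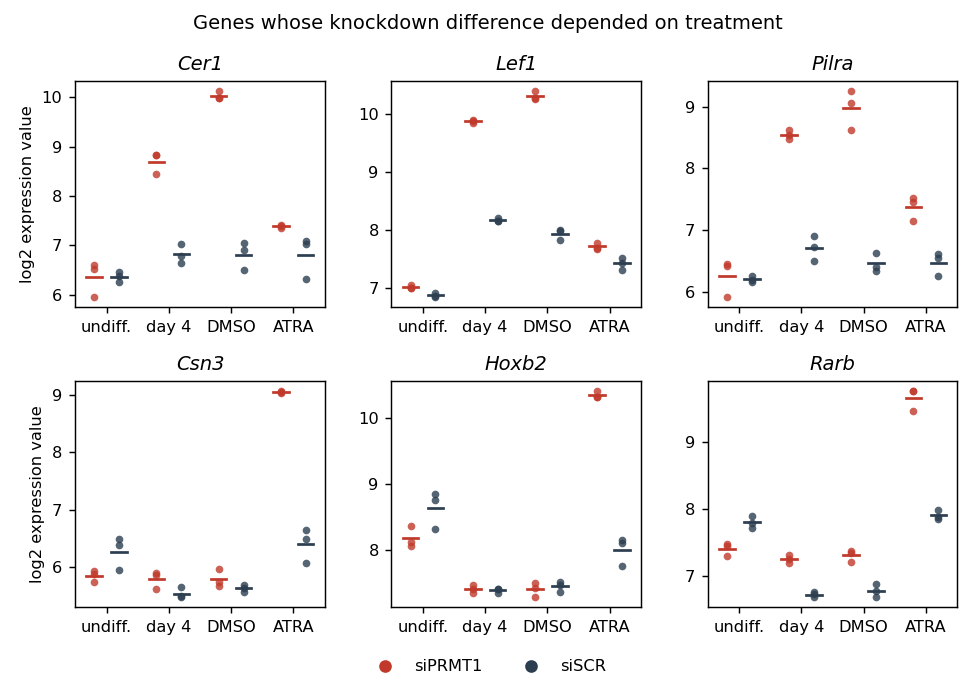
Log2 expression value (y axis, its range differs between panels) of 6 genes on each array by state (x axis), with the mean of 3 arrays as a bar. Cer1, Lef1 and Pilra were high in siPRMT1 at day 4 and with DMSO and lower with ATRA, and Csn3, Hoxb2 and Rarb were highest in siPRMT1 with ATRA.

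Retinoic acid target genes as a list were 20 higher and 4 lower of 30 measured at 12 h (median 0.37), with a median of 0.65 with ATRA and -0.05 with DMSO. In 16 members the effect was called more positive with ATRA, and in 1, the receptor gene Rarg, more negative (-0.33). At day 4 6 were higher and 2 lower (median 0.05). Only 1 of the 30 had its treated siSCR arrays outside the other 18. These siSCR arrays pool both treatments, so a gene that responds to ATRA can rarely have all 6 outside. The count thus cannot show that siSCR had not moved. Over the list, the median change from day 4 was 0.37 in siSCR and 0.61 in siPRMT1. Stra6, the retinol-binding protein receptor, was higher by 1.33 ± 0.072 with ATRA and 0.40 ± 0.072 with DMSO, the Hox cofactor Meis2 by 2.25 ± 0.080 and 1.13 ± 0.080, Hoxa3 by 1.40 and 0.37, and Crabp2, a carrier that delivers retinoic acid to its receptors, by 1.06 and 0.24. None of these except Crabp2 was called at day 4.

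The promoters of Rarb and Cyp26a1, which hold a direct repeat of the receptor half-site with 5 bases between (DR5 retinoic acid response element), are shown because both genes respond directly to the hormone. The sequences are from RefSeq on build GRCm38.p6, each 120 bases of the strand of the gene, with the element in capitals. Rarb lies on the minus strand at chr14:16575477-16575596, and its element spans 53 to 37 bases before the transcription start. Cyp26a1 lies on the plus strand at chr19:37697688-37697807, with the element 32 to 16 bases before the start.
Rarb: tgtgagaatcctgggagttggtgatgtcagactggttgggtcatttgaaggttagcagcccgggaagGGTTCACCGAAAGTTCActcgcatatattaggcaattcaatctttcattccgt
Cyp26a1: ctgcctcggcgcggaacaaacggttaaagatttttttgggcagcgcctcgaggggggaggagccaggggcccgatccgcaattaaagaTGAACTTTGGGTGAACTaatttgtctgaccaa
The element was searched as 2 half-sites, each written as AGGTCA or as AGTTCA or as GGGTCA or as GGTTCA, with any 5 bases between, on both strands in 32851 promoter windows, and 32 of them (0.0974%), at 31 genes, held it. Of the 11 such genes measured, 4 were higher and 3 lower in siPRMT1 with ATRA, and 4 higher and 3 lower with DMSO. Over all genes, 32.2% were higher and 38% lower with ATRA, and 31.3% and 34.6% with DMSO. The counts thus do not set genes with the element apart. A match of letters does not show binding.

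Rarb, the inducible retinoic acid receptor, was at 9.76, 9.76 and 9.47 with ATRA and 7.21, 7.38 and 7.34 with DMSO in siPRMT1, against 7.89, 7.86 and 7.99 with ATRA and 6.88, 6.69 and 6.78 with DMSO in siSCR. The lines did not overlap with either treatment, and the highest arrays were those of siPRMT1 with ATRA. The difference was 1.75 ± 0.079 with ATRA and 0.53 ± 0.079 with DMSO (limma adjusted p of the contrast 1.33e-06), and 0.53 ± 0.079 at day 4. Cyp26a1, the hydroxylase that degrades retinoic acid, was at 12.44, 12.40 and 12.31 with ATRA and 10.86, 10.84 and 10.93 with DMSO in siPRMT1, against 11.88, 11.59 and 11.66 with ATRA and 9.80, 9.61 and 10.01 with DMSO in siSCR. Both lines were higher with ATRA than with DMSO. The difference between lines was 0.67 ± 0.098 with ATRA and 1.07 ± 0.098 with DMSO, which was not called unequal (adjusted p = 0.13), and 1.61 ± 0.098 at day 4.

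Receptors and cofactors of retinoic acid were 12 higher and 0 lower of 13 measured at 12 h (median 0.79), and 4 higher and 1 lower at day 4 (median 0.12). In 8 of the 13 the treated siSCR arrays lay outside the other 18. Carm1, an arginine methyltransferase that acts as a nuclear receptor coactivator, was at 12.09, 12.13 and 12.21 in treated siPRMT1 bodies, against 10.42, 10.68 and 10.86 in treated siSCR bodies. All other arrays of the series lay between 12.04 and 12.21, the siPRMT1 arrays among them. The 12 h difference was 1.49 ± 0.037 and the day 4 difference 0.05 ± 0.053 (adjusted p = 0.61). The acetyltransferases Ep300 (1.55 ± 0.047) and Crebbp (1.33 ± 0.052) and the coactivator Ncoa1 (0.95 ± 0.068) were likewise 12 h only genes, with -0.09, 0.12 and -0.04 at day 4. Rxrg, Rarb, Rarg and Ncoa3 were the members called higher in both states. Of the 9 measured members of the Prmt family itself, 2 were higher and 5 lower at 12 h, while 34.6% of all genes were higher and 44.8% lower. Besides Prmt1 only Prmt5 (0.80 at 12 h and 0.20 at day 4) was called with the same sign at day 4.

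Of the genes called and changed at least 2-fold at 12 h, 932 were 12 h only genes, 499 were shared with day 4 and 66 were opposite to it. Usp17ld, a deubiquitinase gene, was at 6.72, 7.07 and 7.25 in treated siPRMT1 bodies, against 11.55, 12.32 and 12.38 in treated siSCR bodies. Day 4 values were 7.17, 7.06 and 7.12 in siPRMT1, against 7.05, 6.80 and 7.13 in siSCR. The treated siSCR arrays lay above every other array of the series, the highest of which reached 9.29. The 12 h difference was -5.13 ± 0.12 (limma adjusted p = 3.42e-18) and that of day 4 0.12 ± 0.17. Other measured members of the Usp17 family did not follow: Usp17la was at 0.50 ± 0.13, Usp17lb at 0.21 ± 0.084 and Usp17lc at -0.26 ± 0.090. Probe sequences were not used here, so probes shared with close copies could not be told apart.

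Mitochondrial assembly genes gave several of these cases, in both directions. Uqcc2, an assembly factor of respiratory complex III, was at 11.08, 11.15 and 11.26 in treated siPRMT1 bodies, against 7.80, 8.21 and 8.28 in treated siSCR bodies. Untreated at day 4, it was 11.12, 11.16 and 11.03 in siPRMT1, against 11.27, 11.16 and 11.11 in siSCR. The treated siSCR arrays alone were low. Micos10, a subunit of the complex that shapes cristae, was at 9.48, 9.76 and 9.90 in treated siPRMT1 bodies, against 12.23, 12.39 and 12.49 in treated siSCR bodies. Here the treated siSCR arrays alone were high. The differences were 3.04 ± 0.073 and -2.64 ± 0.056 at 12 h, and -0.07 ± 0.10 and 0.09 ± 0.079 at day 4. Of 28 measured genes of this list 10 were higher and 15 lower at 12 h (median -0.20), and 4 were higher and 0 lower at day 4. Over all genes 34.6% were higher and 44.8% lower at 12 h (median -0.10), and 11.4% and 7.01% at day 4. Of the 28 in the list, 19 were 12 h only genes, and in 15 the treated siSCR arrays lay outside the other 18. Over all genes these shares were 39.2% and 28.9%. The copper chaperone Cox17 was lower by -1.09 ± 0.067 and Chchd3 higher by 1.15 ± 0.037.

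The other named 12 h only genes had no common role. Higher in siPRMT1 were Ly96 (2.69 ± 0.16), the lipopolysaccharide coreceptor, the homeobox gene Pbx3 (2.64 ± 0.069), Smim8 (2.47 ± 0.091), the secreted glutathione peroxidase Gpx3 (2.42 ± 0.085), the unconventional myosin Myo9a (2.26 ± 0.082), the centromere protein Cenpv (2.17 ± 0.051), Ggact (2.17 ± 0.078), the complement inhibitor Cd59a (2.10 ± 0.065) and Dip2c (2.05 ± 0.10). Lower were AY036118 (-2.78 ± 0.12), Rida (-2.25 ± 0.063), the Polycomb subunit Pcgf1 (-2.03 ± 0.086), Gemin6 of the SMN complex (-1.89 ± 0.051), Zswim7 (-1.85 ± 0.060), the annexin Anxa1 (-1.83 ± 0.10), the centrin Cetn4 (-1.73 ± 0.077) and Pdcl (-1.71 ± 0.040). Their day 4 differences ran from -0.22 to 0.64, and that of Ly96 was the highest (0.64 ± 0.23, adjusted p = 0.056). In all 20 named 12 h only genes except Anxa1 the treated siSCR arrays lay outside the other 18. Set against the siSCR arrays of day 4, treated siPRMT1 bodies were at -0.02 for Uqcc2, 0.05 for Usp17ld, -0.02 for Micos10, 0.31 for Pbx3 and 0.02 for Rida.

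The named genes with opposite signs at 12 h and day 4 included noncoding RNAs. Terc, the RNA component of telomerase, was at 12.50, 12.52 and 12.59 in treated siPRMT1 bodies, against 8.35, 8.77 and 9.36 in treated siSCR bodies. At day 4 it was 12.64, 12.70 and 12.59 in siPRMT1, against 13.01, 12.98 and 13.02 in siSCR. The lines were thus separate in both states, in opposite order, by 3.74 ± 0.086 at 12 h and -0.36 ± 0.12 at day 4. DQ267102 (2.07 and -0.54), the histone H2bc3 (2.03 and -0.30), Tmem243 (1.79 and -0.34) and R3hdm2 (1.59 and -0.29) had the same order. The RNA kinase Clp1 (-1.90 and 0.30), Znhit3 (-1.37 and 0.25), the elongation factor Elof1 (-1.33 and 0.23), the mitochondrial fatty acid enzyme Hadhb (-1.22 and 0.32) and the growth arrest gene Gadd45a (-1.22 and 0.47) had the reverse. In each of these 10 genes the treated siSCR arrays lay outside the other 18.

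Signal level moved with the 12 h differences. With genes in 10 equal bins by mean log2 value, in the dimmest bin, with a median level of 4.87, the median 12 h difference was -0.385, and 79.9% were called lower. In the brightest bin, with a median level of 11.8, it was 0.244, and 61.9% were called higher. At day 4 the medians of the bins ran from -0.0706 to 0.0606. Gene classes with low signal were mostly called lower. Of 1027 olfactory receptors 5 were called higher and 803 lower at 12 h (median -0.37), against 1 higher and 9 lower at day 4. Of 300 microRNA genes 8 were higher and 236 lower at 12 h. The olfactory median was -0.0871 after quantile normalization and -0.0879 with scaling to one SD, and with quantile normalization 71 were called higher and 281 lower. The microRNA median was then -0.258 and -0.222. Without the dimmest 25% of genes, 82 of 99 olfactory receptors (median -0.387) and 84 of 105 microRNA genes (median -0.503) were still lower. The median of all genes was 0.0546 there. The falls of these classes were thus not confined to the dimmest genes. Of 347 zinc finger genes, which were brighter, 197 were higher and 74 lower (median 0.26), against 24 and 18 at day 4.

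**Figure D5:**
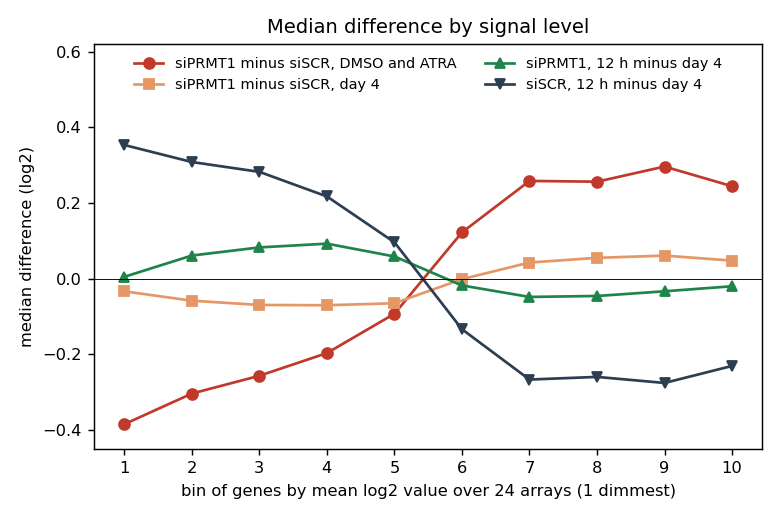
Median log2 difference (y axis) in each of 10 equal bins of the 19938 genes, ordered by mean log2 value over 24 arrays (x axis, 1 is the dimmest bin). For the knockdown at 12 h the line climbs from -0.385 to between 0.244 and 0.296 in the brighter bins, the change of siSCR after day 4 runs the other way, and the day 4 knockdown and the change of siPRMT1 stay within 0.1 of 0.

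Markers of other cell types were checked beside these results. For scale, 34.6% of all genes were called higher and 44.8% lower at 12 h, and 11.4% and 7.01% at day 4. Sox2 was lower in siPRMT1 by -0.56 ± 0.052 at 12 h and was not called at day 4 (-0.17 ± 0.073). Fibroblast and feeder markers were 4 higher and 10 lower of 21 measured at 12 h (median -0.12, a sign that was lost with centring), and 0 higher and 10 lower at day 4 (median -0.29). Their mean level was 8.162 to 8.277 in treated siPRMT1 arrays and 8.249 to 8.360 in treated siSCR arrays, and at day 4 8.220 to 8.241 in siPRMT1 and 8.435 to 8.576 in siSCR. Collagen genes such as Col1a1 (-0.43 and -0.31 at 12 h and day 4) and Col1a2 (-0.45 and -0.29) were lower, while Fn1, fibronectin, and Vim, vimentin, went opposite ways (0.44 and -0.51, 0.58 and -0.21). Of the endothelial and blood markers 5 were higher and 7 lower of 16 at 12 h, near the shares of all genes. At day 4, 5 were higher and 1 lower. The endothelial cadherin Cdh5 was at 1.95 ± 0.081 at 12 h and 0.75 ± 0.11 at day 4, and the endothelial adhesion molecule Pecam1, which stem cells express too, at -0.82 ± 0.047 and -0.72 ± 0.067. Arrays give no true zero, so absence of a marker cannot be read from them. The part of such cells in the lower genes was not tested. Heart and muscle genes were 1 higher and 8 lower of 12 at 12 h and 0 higher and 2 lower at day 4, and neuroectoderm genes 2 higher and 6 lower of 16, with a median of -0.117 that turned to 0.0302 with quantile normalization, and 0 higher and 1 lower at day 4.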

How the data were processed

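Total RNA was hybridised to 24 Affymetrix mouse gene arrays, 3 per group. The deposited values are on a log2 scale, read from their range of 2.14 to 14.5. The labels do not state how the authors summarised and normalized them, and they were used as deposited. Of 35556 probe sets, 21789 had 1 gene symbol in the platform annotation, 1621 several and 12146 none. Sets with several or no symbol were left out, and the brightest set was kept for 999 genes with several, which left 19938 genes. limma 3.58.1 in R 4.3.3 fitted 8 group means (16 residual degrees of freedom) with eBayes and Benjamini-Hochberg adjustment over all genes, and was tested on simulated data. The members and gene lists were chosen with earlier results of these data known. Named genes were Prmt1 and others chosen among genes called with DMSO, with ATRA and on average whose lines do not overlap. From these came up to 10 per direction of the shared class (also separate at day 4) and of the 12 h only class. The opposite class gave up to 5 per direction. Up to 5 per direction of the ATRA contrast were named among genes called in that contrast, without the other conditions. Predicted genes, RIKEN clones, microRNAs, small nucleolar and Cajal body RNAs and receptor families were passed over, and list members were named by size or for their role. The 59 genes past 2-fold in both states, and genes named from them, were chosen after their values were seen. Deviations of same-numbered siPRMT1 and siSCR arrays of the same state correlated at -0.127 to 0.111, so no pairing of the lines was seen. Pairing of same-numbered arrays between states of 1 line was not examined. Alternatives were other scalings, filters, probe set rules, variance models, sets of arrays, a replicate block and leaving out each array. Promoters are from RefSeq tables. Precision is limited by the 3 arrays of a group.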

Additional observations from a re-analysis of the deposited data

Results flagged for a closer look

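The knockdown effect differed between 12 h and day 4 in 10406 genes by the limma contrast of the 2 effects, and between ATRA and DMSO in 646. Of the 61 genes named by rule, 55 had a called 12 h minus day 4 difference and 14 a called ATRA minus DMSO difference, each below in log2 as siPRMT1 minus siSCR in the first state less that in the second. For Prmt1 the 12 h effect was more negative by -0.65. Among genes called the same way in both states it was more positive at 12 h for Apoa1 (0.878), Reep6 (2.3), Gkn2 (1.82), Selenop (1.65), Meioc (1.39), Map7d3 (1.11), Greb1l (1.15), Glipr1 (1.68) and Abitram (1.96). It was more negative for Pmvk (-1.15), Malat1 (-1.11), Fmr1nb (-1.06), Pmaip1 (-1.06), Gdpd3 (-0.44), Tfrc (-1.05), Antkmt (-0.844), Ankrd37 (-0.606) and Krt19 (-0.63).

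Among the 12 h only genes the effect was more positive at 12 h for Uqcc2 (3.11), Ly96 (2.05), Pbx3 (2.41), Smim8 (2.54), Gpx3 (2.15), Myo9a (2.13), Cenpv (2.13), Ggact (1.91), Cd59a (1.93) and Dip2c (2.09). It was more negative for Usp17ld (-5.25), AY036118 (-2.56), Micos10 (-2.73), Rida (-2.29), Pcgf1 (-2.04), Gemin6 (-1.9), Zswim7 (-1.83), Anxa1 (-2), Cetn4 (-1.51) and Pdcl (-1.79). These genes were sorted into their class by this same contrast, so the call is not independent of the class.

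Among genes with opposite signs it was more positive at 12 h for Terc (4.1), DQ267102 (2.61), H2bc3 (2.33), Tmem243 (2.14) and R3hdm2 (1.88). It was more negative for Clp1 (-2.2), Znhit3 (-1.61), Elof1 (-1.56), Hadhb (-1.54) and Gadd45a (-1.69). Genes named for their ATRA contrast had 12 h minus day 4 differences too, positive for Csn3 (1.15), Hoxb2 (1.13), Hoxb1 (0.718), Hoxb5 (0.972) and Pgam2 (0.885) and negative for Lef1 (-0.374).

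Between treatments the effect was more positive with ATRA for Tgm2 (0.568), Pcgf1 (0.779), Csn3 (2.51), Hoxb2 (2.4), Hoxb1 (1.94), Hoxb5 (1.92) and Pgam2 (1.69). It was more negative with ATRA for Prmt1 (-0.333), Pmaip1 (-0.586), Cer1 (-2.64), Lef1 (-2.09), Pilra (-1.61), Pim2 (-1.55) and Cdh9 (-1.38).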

How the results depend on the processing

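The replicate number as a block changed no 12 h call of a named gene. It left 15849 genes called at 12 h and 588 for ATRA minus DMSO. With it, 2288 genes were shared with day 4, 839 were opposite and 7863 were in the 12 h only class. The contrast of ATRA and DMSO was the least stable count: 135 genes with only the groups compared, 405 with centring, and 304 to 897 when 1 array was left out, with 382, 313 and 401 without siPRMT1 DMSO replicates 1, 2 and 3 and 311 and 304 without siPRMT1 ATRA replicates 1 and 2. With array weights 6106 genes were called at day 4, 3657 were shared and 1453 opposite. With 1 array left out, 528 to 928 were opposite, with 532 and 528 without siSCR day 4 replicates 2 and 3. Other counts with 1 array left out were 15133 to 16006 at 12 h, 11605 to 13492 with DMSO, 12417 to 14271 with ATRA, 2504 to 4034 at day 4, 9276 to 10865 for 12 h minus day 4, 7091 to 8577 in the 12 h only class and 1622 to 2496 shared, and Prmt1 stood at -1.296 to -1.259. The causes were not tested.

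Chosen after seeing the data, a 2-fold minimum in both states left 59 shared genes, and siSCR at day 4 as the control of treated siPRMT1, a comparison of another time and treatment, left 4960 called. Of 60 named genes besides Prmt1, 35 kept direction and call there and 7 kept direction only (Abitram, Cenpv, Ggact, Cd59a, AY036118, Micos10 and Pcgf1). The sign turned for Uqcc2 (-0.01553), Smim8 (-0.0712), Myo9a (-0.1077), Dip2c (-0.1407), Usp17ld (0.04746), Rida (0.0152), Zswim7 (0.005758), Pdcl (0.04628), Terc (-0.4625), DQ267102 (-0.565), H2bc3 (-0.286), Tmem243 (-0.3289), R3hdm2 (-0.283), Clp1 (0.05709), Znhit3 (0.2301), Elof1 (0.1427), Hadhb (0.2822) and Gadd45a (0.5002). In the fit of 12 arrays by line and treatment, Hoxb1 (adjusted p = 0.081) and Hoxb5 (adjusted p = 0.050) were no longer called by limma. No other alternative turned or ended the 12 h call of a named gene it tested. These checks of single genes used the 12 h difference alone. Calls of single genes at day 4 or in the contrast of ATRA and DMSO were not rechecked. Signal over background was not used here, so no limit of detection is given.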

Other observations

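Wnt target genes, not described above, were 10 higher and 3 lower of 16 measured at 12 h (median 0.41), and 5 higher and 2 lower at day 4 (median -0.02). The secreted Wnt inhibitors Dkk1 and Sfrp5 were higher in both states, by 1.67 and 1.66 at 12 h and by 0.66 and 0.96 at day 4. Znrf3, a ubiquitin ligase that removes Wnt receptors, was higher by 1.49 at 12 h and stood at 0.02 at day 4. Cell cycle genes were 20 higher and 8 lower of 29 measured at 12 h (median 0.34), or 15 higher and 10 lower with a median of 0.0966 with arrays scaled to one SD, and 6 higher and 4 lower at day 4, and in 17 of them the treated siSCR arrays lay outside the other 18. Interferon-stimulated genes were 4 higher and 12 lower of 22 at 12 h (median -0.22, while 44.8% of all genes were lower with a median of -0.10), or 5 higher and 7 lower with a median of -0.102 with centring, and 1 higher and 5 lower at day 4, and in 0 of them did the treated siSCR arrays lie outside the other 18. Small nucleolar and Cajal body RNAs were 27 higher and 20 lower of 54 at 12 h (median 0.23), against 1 higher and 26 lower at day 4 (median -0.37). For the scale of these lists, 34.6% of all genes were higher and 44.8% lower at 12 h, and 11.4% and 7.01% at day 4.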
